A study of Sus scrofa with 23 samples.

Results

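The 38 transcripts described here were chosen by their level in the blastocyst of in vivo fertilized Duroc embryos: over 10 FPKM in the piece that holds the inner cell mass (ICM) and under 1 FPKM in the pure trophectoderm (TE). FPKM is the number of sequenced fragments per kilobase of transcript, scaled to the library's total. Of the 8603 genes in the table, 51 passed both limits, and 13 transcription factors, signalling inhibitors and other well-known genes among them were set aside, which left the 38. The table's gene IDs gave a symbol for 29 of these and none for 9, which are named by their Ensembl ID. Because the values of 2 libraries selected the genes, the difference between those 2 libraries is a description here and not a finding.

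The series followed porcine embryos from the mature oocyte to the blastocyst in 3 groups. IV-D embryos came from artificially inseminated Duroc sows and were recovered from the animals. NT-D embryos were clones made by somatic cell nuclear transfer from ear fibroblasts of a Duroc boar, the same boar that sired the IV-D embryos, and NT-LW embryos were clones from the ear fibroblast line of a boar of the Chinese Laiwu breed. The IV-D oocytes had matured in the sows, whereas the clones were built on oocytes of slaughtered hybrid sows matured in vitro and were cultured in vitro. Both clone groups share 1 library of such oocytes, whose GEO label gives the strain as Duroc, which disagrees with the study's methods, so its breed is uncertain. Each library was made from pooled cells or embryos, and each group had 1 library per stage (oocyte for IV-D and for the shared recipients, then 1-, 2-, 4- and 8-cell embryos and morulae) and 1 for each piece of the blastocyst, 23 in all. Blastocysts were cut by hand, so that the piece called IT holds the ICM together with some trophectoderm. Each clone group rests on 1 donor boar, so breed, donor and cell line cannot be told apart. The study reports that all clone embryos were male, whereas the IV-D pools mixed embryos of both sexes. For genes on the sex chromosomes, sex and cloning therefore cannot be told apart. With 1 library per condition no difference has a replicate check and no test of a condition was possible. Counting error, library preparation and the embryos pooled all contribute to each value.

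The first lineage decision of the mammalian embryo separates the trophectoderm, the outer layer that founds the placenta, from the ICM, which gives rise to the epiblast and the hypoblast. In the pig the embryonic genome is activated mainly around the 4-cell stage, so transcripts found earlier are mostly loaded by the oocyte, and those in a clone after transfer can come from the recipient oocyte or from the donor nucleus. ICM cells communicate through receptor tyrosine kinases, G protein-coupled receptors, WNT and BMP signals, and genes of all these kinds stood among the 38.

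The libraries held between 14952784 and 22991067 fragments. At these depths 3 fragments on a transcript of 1 kb correspond to between 0.130 and 0.201 FPKM, and this is the level used as the floor where a gene had no fragment. In the same blastocysts the pluripotency factor NANOG stood at 9.80, 5.00 and 3.76 FPKM in IT of IV-D, NT-D and NT-LW and at 0 in TE of all 3 groups. Trophectoderm markers were present in IT of every group: the 9 of 16 listed markers in the table summed to 1471 FPKM in IT and 1469 in TE of IV-D, to 1327 and 2077 in NT-D and to 1775 and 2981 in NT-LW, with none at 0. NANOG was 1 of 11 measured genes of 25 listed as pluripotency and epiblast markers. In IV-D 4 of these were higher in IT (NANOG, KLF4, GDF3 and LIN28A) and DPPA5 was lower, at 49.6 against 168 FPKM. NANOG and KLF4 were higher in IT of NT-D, and these with LIN28A in NT-LW. The list summed to 245 FPKM in IT and 303 in TE of IV-D, 472 and 414 in NT-D and 556 and 452 in NT-LW. No fragment of NANOG was thus found in any TE piece, other markers of the list were present in TE, and the IT pieces of all groups were mixtures. Fewer ICM cells in a piece and less RNA per ICM cell cannot be told apart in such bulk samples.

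Just inside the limit on IT stood KCTD1 at 10.1 FPKM and SCIN at 10.2, and just outside it PGM5 at 9.82 and NANOG at 9.80. On the TE side the nearest genes inside were SFT2D2 at 0.965 FPKM and SDCBP2 at 0.944, and the nearest outside were FAM111A at 1.09 and ENSSSCG00000012517 at 1.11. The limits therefore cut through a continuous range of levels. The reverse pattern, over 10 FPKM in TE and under 1 in IT, was met by 22 genes in IV-D.

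Level alone did not set these genes apart from the rest of development. All 38 exceeded 1 FPKM in some IV-D library before the blastocyst, and 25 of them exceeded 10. The highest IV-D library was IT for 18 of the 38, the 8-cell embryo for 8 and the morula for 5. It was the oocyte for 4 and the 1-, 2- and 4-cell embryo for 1 each. No share over all genes is given beside these counts, so they describe the 38 alone. The word restricted therefore applies to the 2 pieces of the IV-D blastocyst and not to the whole course.

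**Figure D1:**
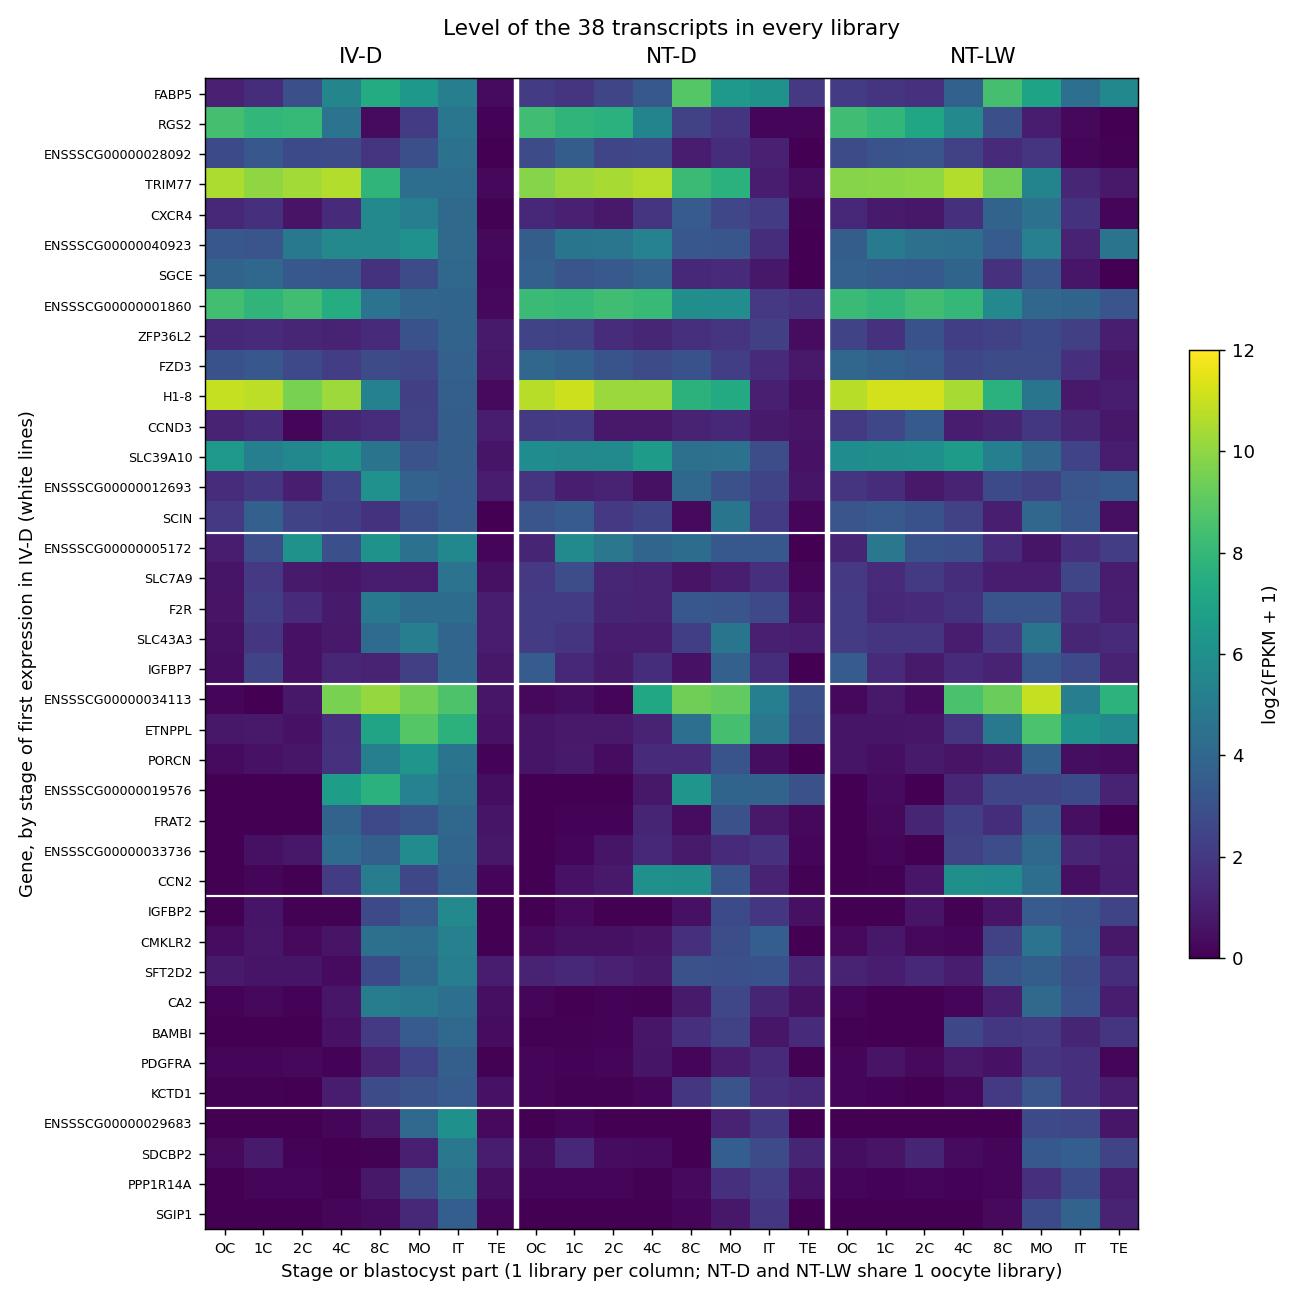
Heat map of the 38 transcripts (rows, ordered by the stage at which they first exceeded 1 FPKM in IV-D, with white lines between stages) in every library (columns, by group); colour gives log2(FPKM + 1). The IV-D TE column is dark throughout because the genes were chosen for it, and in the clone IT columns most genes are darker than in IV-D IT, which also was chosen to be high.

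The start of transcription of some of these genes could be placed on the genome. RefSeq gave 1 position on the Sscrofa11.1 assembly for 25 of the 38 genes, spread over 13 chromosomes, of which 1 gene, PORCN, is X-linked. The 300 bases from 250 before to 50 after the annotated start were read for these 25 genes and for 19506 genes of the annotation, and the GC content had a median of 64.0% for the 25 and 58.7% for all. The letters TATAAA, the core of the TATA box, occurred on either strand in 5 of the 25 windows (20%) and in 10.9% of all windows. The 5 genes were FABP5, RGS2, CXCR4, CCN2 and SCIN. In CCN2, SCIN and RGS2 the run lay 33, 34 and 44 bases before the start. FABP5 and CXCR4 held it on both strands, the nearest 29 and 119 bases before the start. The windows of CCN2, SCIN and RGS2 are printed because their genes span the patterns described next: an early zygotic gene (CCN2), a gene raised in IT of both clone groups (SCIN) and a transcript loaded by the oocyte (RGS2). Capitals mark TATAAA in each window.
CCN2 (chr1:31674148-31674447, plus strand): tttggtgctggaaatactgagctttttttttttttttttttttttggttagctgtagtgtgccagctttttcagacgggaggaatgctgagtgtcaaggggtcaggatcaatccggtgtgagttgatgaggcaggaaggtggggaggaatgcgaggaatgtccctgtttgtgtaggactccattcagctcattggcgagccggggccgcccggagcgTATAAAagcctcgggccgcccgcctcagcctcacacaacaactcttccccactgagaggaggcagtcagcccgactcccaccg
SCIN (chr9:82103021-82103320, plus strand): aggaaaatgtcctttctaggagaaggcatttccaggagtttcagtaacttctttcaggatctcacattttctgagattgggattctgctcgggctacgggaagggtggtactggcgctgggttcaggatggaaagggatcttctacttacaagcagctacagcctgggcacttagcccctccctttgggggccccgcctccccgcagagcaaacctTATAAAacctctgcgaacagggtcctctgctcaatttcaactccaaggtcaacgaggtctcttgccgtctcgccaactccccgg
RGS2 (chr10:940034-940333, minus strand): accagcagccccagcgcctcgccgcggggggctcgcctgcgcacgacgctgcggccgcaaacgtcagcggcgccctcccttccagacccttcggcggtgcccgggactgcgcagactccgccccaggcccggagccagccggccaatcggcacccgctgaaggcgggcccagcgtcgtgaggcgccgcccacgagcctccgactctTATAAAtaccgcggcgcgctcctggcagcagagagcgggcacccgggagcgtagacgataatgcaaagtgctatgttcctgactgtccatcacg
The letters TAATCC, bound by OTX2 and GSC, occurred in the windows of PORCN and SGCE (8.0% of the 25 against 6.09% of all windows), and GGGTGTGG, bound by KLF factors, in that of IGFBP7 (4.0% against 3.20%). The STAT letters TTCNNNGAA, the POU5F1 letters ATGCAAAT and the SOX2 letters CATTGTT occurred in none of the 25 windows and in 7.09%, 1.39% and 2.46% of all. The core AGATAA of GATA factors was in none of the 25 either, and in 9.18% of all. These matches, searched on both strands, describe letters and not binding.

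In the course of the IV-D embryos the 38 transcripts fell into early and late arrivals. Taking over 1 FPKM as expressed, 15 were first expressed in the oocyte, 5 in the 1-cell and 7 in the 4-cell embryo. A further 7 were first expressed in the 8-cell embryo and 4 in the morula, and none waited for the blastocyst. The oocyte held 15 of the 38 over 1 FPKM but 71.6% of all genes, the 8-cell embryo 32 and 80.8%, and the morula 37 and 80.2%. Of the 5 genes first expressed in the 1-cell embryo, SLC7A9, F2R, SLC43A3 and IGFBP7 were lower again at 2 cells, and ENSSSCG00000005172 was higher. The 8 measured fibroblast markers summed to 72.3 FPKM in the IV-D 1-cell library, against 5.51 in the oocyte and 5.35 at 2 cells. The part of other cells in the 1-cell values was not tested. A difference between 2 libraries was called a change where log2(FPKM + 1) differed by more than 1 and 1 of the 2 libraries held at least 1 FPKM. Against 2-cell embryos 9 of 38 were higher in 4-cell embryos and 2 lower (29.2% and 10.4% of all genes). At 8 cells 16 had risen and 7 had fallen against 4 cells, where 32.6% of all genes rose and 26.2% fell. Between the 8-cell embryo and the morula 15 rose (10.5% of all genes) and 7 fell (11.6%). The share of the 38 that rose stood furthest from that of all genes at the step to the morula. The morula is next to the selecting IT library, so the choice may favour that rise. From morula to IT 17 rose and 6 fell, beside 6.39% and 6.30% of all genes, but IT was one of the selecting libraries and nothing is read from that step.

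**Figure D2:**
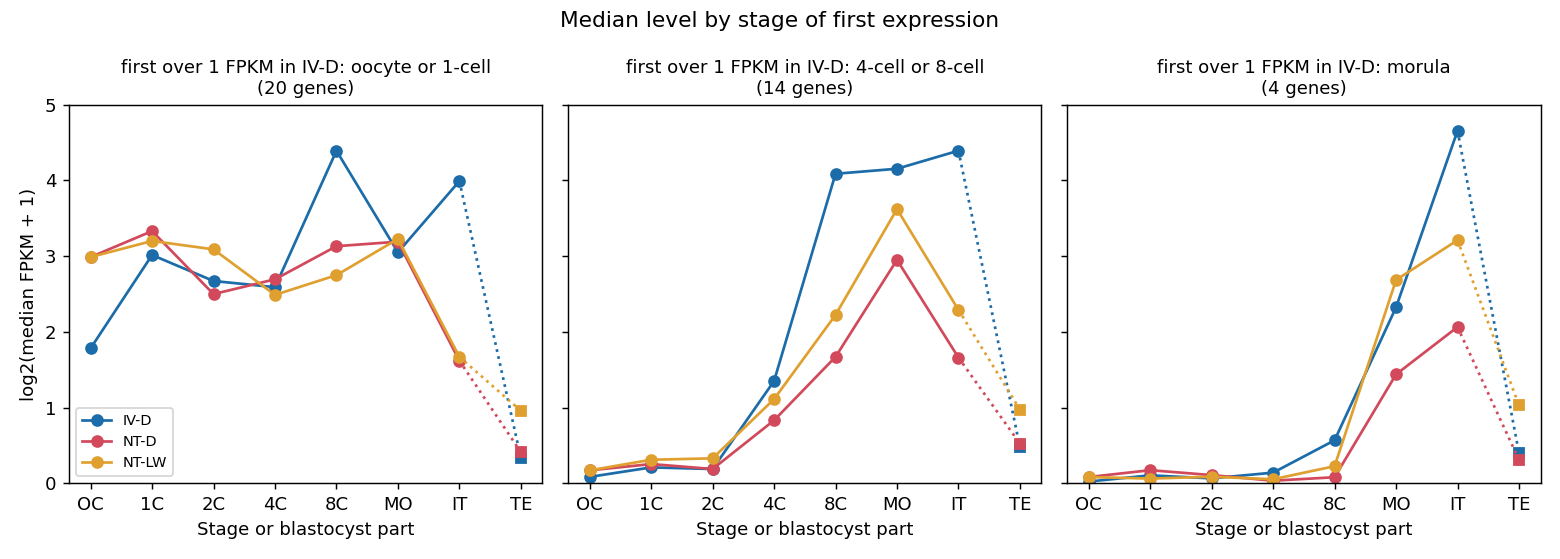
Median level of the genes first expressed in IV-D in the oocyte or 1-cell embryo (20 genes), at the 4- or 8-cell stage (14 genes) and in the morula (4 genes), by stage; lines join the stages of 1 group, squares and dotted lines give TE, and the y axis is log2(median FPKM + 1). In the middle class the IV-D median reaches 16.0 FPKM in the 8-cell embryo against 2.18 in NT-D and 3.67 in NT-LW.

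Receptors, the first class described, changed mainly at the 8-cell stage. CXCR4, the receptor of the chemokine CXCL12, measured 1.61, 2.03, 0.546, 1.70, 49.8, 34.0 and 17.0 FPKM from the IV-D oocyte to IT and 0.0609 in TE. In the clones it reached 9.73 (NT-D) and 13.2 (NT-LW) in 8-cell embryos, 4.92 and 21.9 in morulae and 3.28 and 2.34 in IT, with 0.0350 and 0.155 in TE. It thus rose at the 8-cell stage in all 3 groups and was higher in IT than in TE in all 3.

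CMKLR2, a G protein-coupled receptor for chemerin, measured 0.530 FPKM in 4-cell, 20.4 in 8-cell embryos, 18.8 in morulae, 36.3 in IT and 0 in TE of IV-D. NT-D embryos gave 2.18, 6.27, 11.0 and 0 for the same last 4 libraries, and NT-LW embryos gave 4.19, 22.9, 8.83 and 0.713. It was the only one of the 38 that met both limits in a clone group (NT-D), where IT was at least 123-fold higher than a TE level of 3 fragments; in NT-LW the ratio was 12.4-fold.

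F2R, the thrombin receptor, rose from 0.797 FPKM in the 4-cell to 27.7 in the 8-cell IV-D embryo, stood at 17.8 in both morula and IT, and was at 0.916 in TE. The clones measured 8.42 and 7.69 FPKM in 8-cell embryos of NT-D and NT-LW and 7.96 and 7.75 in morulae. In IT the NT-D value was 5.27 (TE 0.405) and the NT-LW value 2.20 (TE 1.03), which passed the fold rule in NT-D alone.

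RGS2, which speeds the shut-off of G protein signals, was an oocyte transcript in all groups. It fell in IV-D from 352 FPKM in the oocyte to 22.6 in the 4-cell and 0.279 in the 8-cell embryo, and then measured 3.35 in the morula and 25.4 in IT. NT-D went from 319 in the shared oocytes to 3.95 in 8-cell embryos, 2.48 in morulae and 0.146 in IT, and NT-LW from the same oocytes to 6.70, 0.937 and 0.195. A renewed high level after the morula was therefore seen in the IV-D IT library and in neither clone IT library, and the rule selected the gene on the former.

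PPP1R14A, an inhibitor of myosin phosphatase that acts downstream of such receptors, first passed 1 FPKM in the morula, at 6.40 in IV-D, 2.12 in NT-D and 2.17 in NT-LW. IT held 21.3, 3.50 and 5.38 FPKM and TE 0.403, 0.478 and 0.864. The ratio of IT to TE was 7.32-fold in NT-D and 6.22-fold in NT-LW, so both clone groups had the higher level in IT. Of the 17 measured genes of the 32 listed for G protein signalling, CXCR4, F2R, CMKLR2 and RGS2 were higher and F2RL1 lower in IT than in TE of IV-D, CXCR4, F2R and CMKLR2 were higher in NT-D, and CXCR4 and CMKLR2 in NT-LW. Among all genes 14.9% were higher and 8.10% lower in IT of IV-D, and the 4 higher IV-D genes are among the 38 and so higher by the rule.

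Growth factor signalling was represented by a receptor, 2 binding proteins, a decoy receptor and a matrix protein. PDGFRA, the receptor of platelet-derived growth factor and a marker of the hypoblast lineage, measured 0.0965 FPKM in the 4-cell embryo, 1.25 in the 8-cell embryo, 4.25 in the morula, 11.6 in IT and 0.0614 in TE of IV-D. NT-D held 0.859 in the morula, 1.66 in IT and 0.0393 in TE, and NT-LW held 2.52, 2.22 and 0.121, an 18.3-fold ratio between its pieces. PDGFRA was higher in IT in all 3 groups. The other 8 measured hypoblast markers of 15 listed did not share the order of the groups: the list summed to 75.2 FPKM in IT and 48.9 in TE of IV-D, 188 and 33.0 in NT-D and 509.9 and 69.3 in NT-LW, with SPARC at 0 in both IV-D pieces.

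IGFBP2, which binds insulin-like growth factors, rose in IV-D from 0.0501 FPKM in the 4-cell embryo to 5.25 in the 8-cell embryo, and stood at 9.72 in the morula, 49.4 in IT and 0 in TE. NT-D measured 0.473 in the 8-cell embryo, 5.57 in the morula, 2.68 in IT and 0.433 in TE, and NT-LW 0.558, 10, 7.90 and 4.45. The clone morulae thus held 5.57 and 10 FPKM against 9.72 in IV-D, and neither clone group increased further in IT. The rule set the IV-D values in IT and TE, and nothing is read from the clones against them. IGFBP7, a secreted relative, measured 3.81 FPKM in the IV-D morula, 14.0 in IT and 0.701 in TE, against 11.7, 2.0 and 0.0320 in NT-D and 8.89, 5.25 and 1.30 in NT-LW. Both clone morulae therefore exceeded the IV-D morula in IGFBP7.

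BAMBI, a decoy receptor that dampens TGF-beta and BMP signals, climbed in IV-D from 0.502 FPKM at 4 cells to 3.06 at 8 cells, 9.85 in the morula and 16.0 in IT, with 0.323 in TE. In NT-D it measured 0.643, 2.18, 3.99, 0.671 and 1.66 in the same 5 libraries, and in NT-LW 5.02, 2.85, 3.0, 1.40 and 2.59. IT thus lay below TE in both clone groups, although neither difference passed the fold rule. Among the 18 measured genes of the 31 listed for BMP and TGF-beta signals, BAMBI, SMAD6, ID2 and FST were higher and BMPR1B and SMAD5 lower in IT of IV-D, BAMBI by the rule, beside 14.9% and 8.10% of all genes. In NT-D ID2 and FST were higher (3.39% of all genes), in NT-LW SMAD6, ID3 and FST (4.01%), and none was lower in either.

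CCN2, a secreted matrix protein and a target of the Hippo effector YAP, first exceeded 1 FPKM at the 4-cell stage in all 3 groups and was higher there in the clones. It measured 3.37 FPKM in 4-cell IV-D embryos but 65.0 in NT-D and 62.8 in NT-LW, then 33.5, 62.7 and 56.2 in 8-cell embryos and 5.16, 7.76 and 19.4 in morulae of the 3 groups. IT held 11.9, 1.24 and 0.394 FPKM and TE 0.175, 0.0418 and 0.887. The IV-D value in IT was high by the rule, and no order of the groups in IT is read from it.

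**Figure D3:**
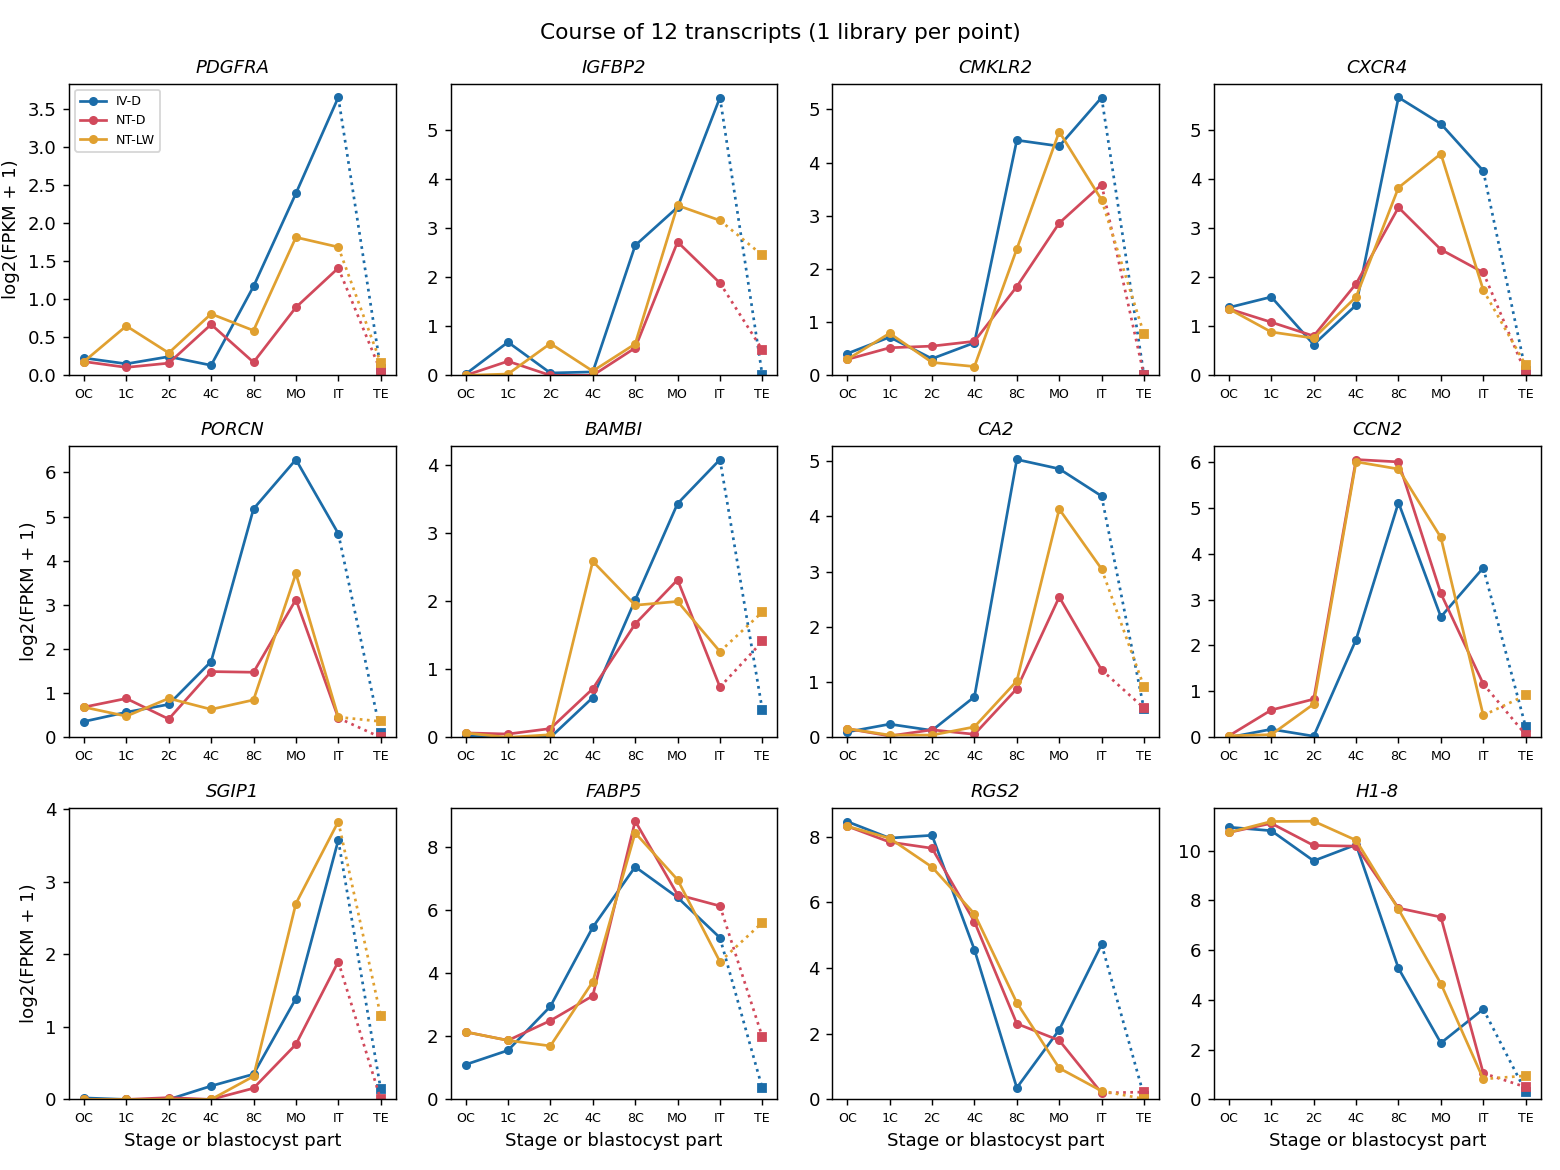
Course of 12 transcripts from oocyte (OC) through 1-, 2-, 4- and 8-cell embryos (1C to 8C) and morula (MO) to IT, with TE as squares joined by dotted lines; y axes give log2(FPKM + 1), each panel on its own scale from 0, and each point is 1 library. CXCR4, CMKLR2, CA2 and PORCN rise to higher 8-cell levels in IV-D than in either clone group, CCN2 is higher in the clones at 4 cells, and RGS2 and H1-8 rise again in IV-D IT alone.

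Of the WNT pathway, 3 components were among the 38. PORCN, the enzyme that attaches the lipid that WNT ligands need for secretion, measured 2.29 FPKM in the 4-cell embryo, 35.1 in the 8-cell embryo, 77.3 in the morula, 23.5 in IT and 0.0674 in TE of IV-D. NT-D gave 1.81, 1.78, 7.70, 0.357 and 0, and NT-LW 0.553, 0.801, 12.1, 0.375 and 0.285. PORCN was lower in both clone groups than in IV-D at the 8-cell and morula stages, which the rule did not use. It fell from morula to IT in all 3 groups. Because PORCN is X-linked and the clones were all male, sex and cloning cannot be told apart for this gene.

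FRAT2, which binds GSK3 and favours WNT signalling, measured 13.1 FPKM in 4-cell IV-D embryos against 1.36 in NT-D and 3.65 in NT-LW, and 5.31 against 0.302 and 1.96 in 8-cell embryos. The morulae lay closer together, at 7.67, 6.78 and 9.33 FPKM, and IT held 15.5, 0.756 and 0.406. FZD3, a WNT receptor loaded by the oocyte, varied little: it ranged in IV-D from 3.59 FPKM (4-cell) to 11.7 (IT) outside TE, which held 0.716, and measured 1.67 and 2.16 in IT of NT-D and NT-LW. Of 19 measured WNT pathway genes of 36 listed, 5 were higher in IT of IV-D (PORCN, FZD3, AXIN2, DKK1 and RSPO3) and 4 lower (WLS, WNT6, FZD4 and GSK3B), beside 14.9% and 8.10% of all genes, and PORCN and FZD3 are among the 5 by the rule. DKK1 was the 1 higher gene of the list in NT-LW (4.01% of all genes) and none was in NT-D (3.39%).

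Enzymes and transporters included the highest IT level of a gene with a symbol. ETNPPL, which breaks down phosphoethanolamine, rose in IV-D from 2.12 FPKM at 4 cells to 128 at 8 cells, 454 in the morula and 210.1 in IT, against 0.525 in TE. NT-D measured 20.1, 347, 27.2 and 5.92 in the last 4 libraries, and NT-LW 27.8, 383, 71.1 and 50.7. The morulae of the 3 groups thus lay close together, whereas 8-cell embryos were lower in the clones, and nothing is read from IT and TE against IV-D, which the rule set.

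FABP5, a carrier of fatty acids, peaked at 8 cells in every group, at 165 FPKM in IV-D, 453 in NT-D and 349 in NT-LW, and measured 83.7, 89.1 and 124 in morulae. IT held 33.9, 69.2 and 19.6 FPKM and TE 0.279, 2.95 and 47.8. FABP5 was the only gene of the 38 higher in NT-D IT than in IV-D IT by the fold rule, and in NT-LW it was 2.44-fold lower in IT than in TE.

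CA2, a carbonic anhydrase, rose to 31.6 FPKM in 8-cell IV-D embryos, where NT-D held 0.842 and NT-LW 1.03, and measured 28.0, 4.81 and 16.5 in morulae, 19.6, 1.33 and 7.26 in IT and 0.423, 0.444 and 0.886 in TE. The clones reached their highest CA2 level 1 stage later than IV-D. SLC43A3, a nucleobase transporter, was likewise lower in clones at 8 cells and less so in morulae, with 17.4 FPKM in 8-cell IV-D embryos against 3.63 in NT-D and 3.01 in NT-LW, then 33.7, 24.2 and 23.4 in morulae and 14.0, 1.08 and 1.42 in IT.

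SLC7A9, a transporter of cystine and basic amino acids, was under 1 FPKM in IV-D from the 2-cell embryo to the morula, where it measured 0.930, and reached 22.5 in IT with 0.443 in TE. NT-D measured 1.01 in the morula and 2.13 in IT, and NT-LW rose from 0.959 to 4.66, with 0.110 and 0.889 in TE. SLC7A9 was higher in IT than in TE in all 3 groups, and so was SLC3A1, its known heavy-chain partner, in NT-D and NT-LW. The zinc importer SLC39A10 declined from 85.0 FPKM in the IV-D oocyte to 7.45 in the morula, with 10.6 in IT and 0.628 in TE. Its clone IT values were 6.13 and 4.34 FPKM with 0.484 and 0.949 in TE, so that the IT piece was higher than TE in all 3 groups although the transcript fell from morula to IT in both clone groups.

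Several of the 38 act in membrane traffic, scaffolding and the cytoskeleton. SGIP1, an endocytic adaptor, was at most 0.273 FPKM in IV-D before the morula, at 1.62 in the morula, 10.9 in IT and 0.104 in TE. NT-D held 0.692, 2.73 and 0, and NT-LW 5.49, 13.2 and 1.22. SGIP1 was 1 of only 2 genes with a higher value in NT-LW IT than in IV-D IT, the other being ENSSSCG00000001860 at 13.7 against 13.6 FPKM.

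SDCBP2, the PDZ scaffold syntenin-2, measured 1.11 FPKM in the IV-D morula but 11.0 in NT-D and 8.79 in NT-LW. IT held 27.0, 5.90 and 11.1 FPKM and TE 0.944, 1.39 and 4.49, which passed the fold rule in each group. SFT2D2, assigned to vesicle transport, measured 34.1, 7.16 and 6.27 FPKM in IT and 0.965, 1.44 and 2.01 in TE. SCIN, which cuts actin filaments in response to calcium, measured 10.2, 3.45 and 8.63 FPKM in IT and 0, 0.113 and 0.418 in TE, and its morula levels of 24.5 (NT-D) and 14.6 (NT-LW) exceeded the 6.55 of IV-D. SGCE, a sarcoglycan, ended at 15.7 FPKM in IV-D IT, high by the rule, and at 0.707 and 0.678 in the clone IT pieces, with 0 in TE of both.

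Regulators of chromatin, RNA and the cell cycle included 2 abundant oocyte transcripts. H1-8, the linker histone of the oocyte, measured 1971 FPKM in IV-D oocytes and 1702 in the recipients, fell in IV-D to 37.6 at 8 cells and 3.82 in the morula, and stood at 11.4 in IT and 0.245 in TE. The clone morulae still held 160.2 (NT-D) and 24.2 (NT-LW) FPKM and their IT pieces 1.08 and 0.767. TRIM77, of the tripartite motif family, fell in IV-D from 1557 FPKM at 4 cells to 19.2 in the morula, 18.4 in IT and 0.198 in TE, with 205 and 41.9 in clone morulae and 0.907 and 1.48 in clone IT. Other TRIM genes are close in sequence, so its fragments may be shared with relatives.

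Other oocyte transcripts were low in the blastocyst. Of 15 listed oocyte transcripts 10 were in the table, H1-8 among them, and the other 9 summed to 8.61 FPKM in the IV-D morula, 5.50 in IT and 0.710 in TE, to 191, 2.26 and 0.99 in NT-D and to 31.0, 2.65 and 1.93 in NT-LW. Their sum was thus lower in IV-D IT than in the morula, and higher in IT than in TE of each group. Of the 9, OOEP and GDF9 were slightly higher in IV-D IT than in the morula and the rest lower, ZP4 at 0.672 against 2.56 FPKM. H1-8 and RGS2 were higher in IT than in the morula, and so was BTG4, an oocyte transcript not on that list. BTG4 measured 6335 FPKM in the IV-D oocyte, 2.72 in the morula, 8.06 in IT and 0.225 in TE. In IV-D IT ZAR1 was at 0, and in IV-D TE ZP2, BMP15, OOEP, ZAR1, MOS and NOBOX were. Of the 10 listed genes in the table, MOS and H1-8 passed the fold rule between the IV-D pieces. The part of such carried-over transcripts in the levels of RGS2, TRIM77, H1-8 and SLC39A10 was not tested.

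ZFP36L2, which targets RNAs with AU-rich elements for decay, measured 7.11 FPKM in the IV-D morula, 13.2 in IT and 0.843 in TE, against 2.45, 3.82 and 0.329 in NT-D and 5.42, 3.77 and 1.01 in NT-LW. ZFP36L2 was higher in IT in all 3 groups. Of its relatives in IV-D, ZFP36 was higher in IT, at 23.7 against 4.91 FPKM in TE, and ZFP36L1 lower, at 2.21 against 10.4. CCND3, a D-type cyclin, measured 0.127 FPKM in IV-D, 0.782 in NT-D and 9.44 in NT-LW at 2 cells, and 3.98, 1.55 and 2.91 in morulae. IT held 10.7, 0.852 and 1.41 FPKM. The rule set the IV-D value of CCND3 in IT, and nothing is read from the clones against it. KCTD1, a BTB-domain protein, rose at 8 cells in each group, to 5.97, 2.71 and 3.15 FPKM, reached 7.44, 7.38 and 8.0 in morulae, and stood at 10.1, 2.09 and 2.12 in IT.

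The 9 genes without a symbol included the highest level of the 38 in IV-D IT. ENSSSCG00000034113 appeared at the 4-cell stage, at 756 FPKM in IV-D, 142 in NT-D and 379 in NT-LW, and reached 1115, 673 and 618 at 8 cells and 706, 557 and 1998 in morulae. IT then held 399, 34.7 and 33.7 FPKM and TE 0.676, 6.57 and 216. Its pieces thus stood in opposite order in the clone groups, 5.28-fold higher in IT in NT-D and 6.42-fold lower in NT-LW. Of the 9, ENSSSCG00000029683 was the last to pass 1 FPKM in IV-D, in the morula. It held 16.1, 1.30 and 5.37 FPKM in morulae, 64.0, 2.87 and 4.90 in IT and 0.235, 0 and 0.662 in TE. Its level was higher in IT than in TE in every group. ENSSSCG00000019576, a short gene of 184 bp, measured 105 FPKM in 4-cell and 203 in 8-cell IV-D embryos against 0.723 and 76.1 in NT-D and 1.42 and 4.65 in NT-LW. The other 6 (ENSSSCG00000005172, ENSSSCG00000028092, ENSSSCG00000040923, ENSSSCG00000033736, ENSSSCG00000001860 and ENSSSCG00000012693) ranged from 10.3 to 46.9 FPKM in IV-D IT.

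The clone blastocysts offer a measure of the ICM bias that the rule did not use. In NT-D 24 of the 38 genes were higher in IT than in TE and 0 lower. Among all 8603 genes 3.39% were higher and 0.302% lower. The median difference in NT-D was 1.48 in log2(FPKM + 1) against 0.04 over all genes. In NT-LW 15 were higher and 3 lower, where 4.01% of all genes were higher and 0.930% lower, with medians of 0.71 and 0.19. With a minimum of 5 FPKM in place of 1, 9 were higher in each clone group. With 0.1 added to FPKM in place of 1, 27 were higher in NT-D and 18 in NT-LW. In IV-D all 38 were higher by selection, beside 14.9% of all genes. Among the 38, 13 were higher in both clone groups, where 80 of all 8603 genes (0.930%) were: CMKLR2, CXCR4, PDGFRA, PPP1R14A, IGFBP7, ZFP36L2, SDCBP2, SFT2D2, SGIP1, SCIN, SLC7A9, SLC39A10 and ENSSSCG00000029683. A further 11 passed in NT-D alone, CA2 and ENSSSCG00000019576 in NT-LW alone, and 12 in neither, among them RGS2, PORCN, FRAT2, FZD3, BAMBI, SGCE, CCND3, KCTD1, H1-8 and TRIM77. A gene that did not pass the rule need not have had equal levels in the 2 pieces. SGCE, under 1 FPKM in both clone IT pieces, was at least 9.08-fold higher in IT in NT-D and 9.85-fold in NT-LW. BAMBI was lower in IT than in TE in both. Whether the 2 clone groups differ in the ICM bias has no replicate and was not tested.

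**Figure D4:**
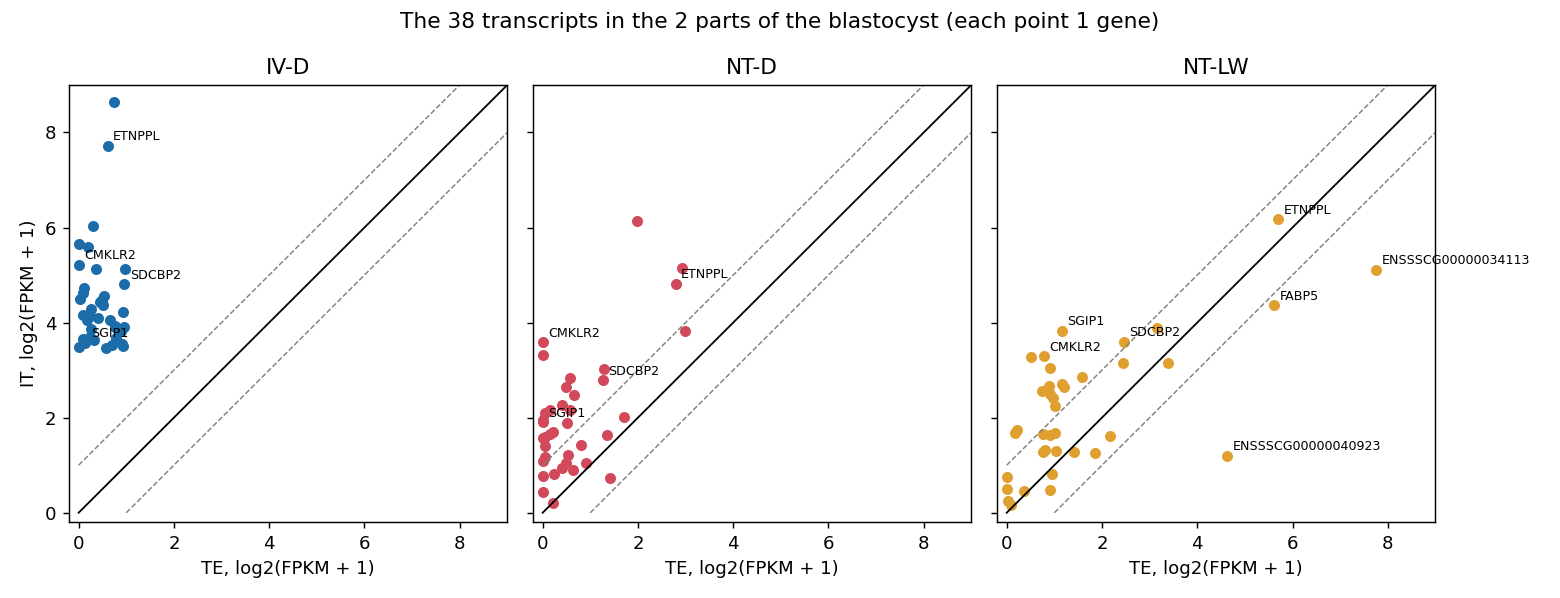
Level of the 38 transcripts in IT (y) against TE (x) in each group, as log2(FPKM + 1); each point is 1 gene, the solid line marks equal levels and the dashed lines a log2 difference of 1. The IV-D points stand apart by selection, no NT-D point lies below the lower dashed line, and 3 NT-LW points do.

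The same 2 limits were applied to the clones. Since the 38 were chosen on IV-D, lower clone IT levels and fewer genes within the limits are favoured by the choice, and these counts are a description. The limits were passed by 12 genes in NT-D, of which CMKLR2 was 1 of the 38, and by 4 genes in NT-LW, none of them among the 38. Over 1 FPKM in IT, 31 of the 38 remained in each clone group, but over 10 FPKM only 5 in NT-D and 6 in NT-LW. The median IT level was 16.8 FPKM in IV-D, 2.45 in NT-D and 3.05 in NT-LW, and the median TE level 0.343, 0.368 and 0.942. More of the genes were measurable in NT-LW TE, where 20 of the 38 were under 1 FPKM in TE against 29 in NT-D.

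Against IV-D IT, 35 of the 38 were lower and 1 higher in NT-D (12.7% and 7.81% of all genes), and 33 were lower and none higher in NT-LW (11.3% lower). IV-D IT was chosen to be high, so a lower clone value is what the choice itself favours, and nothing is read from these counts. The ratios ranged widely nonetheless: RGS2 was 175-fold and 131-fold lower in NT-D and NT-LW, PORCN 65.8-fold and 62.6-fold, and CMKLR2 3.29-fold and 4.11-fold. The 2 sets of ratios share the IV-D libraries.

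**Figure D5:**
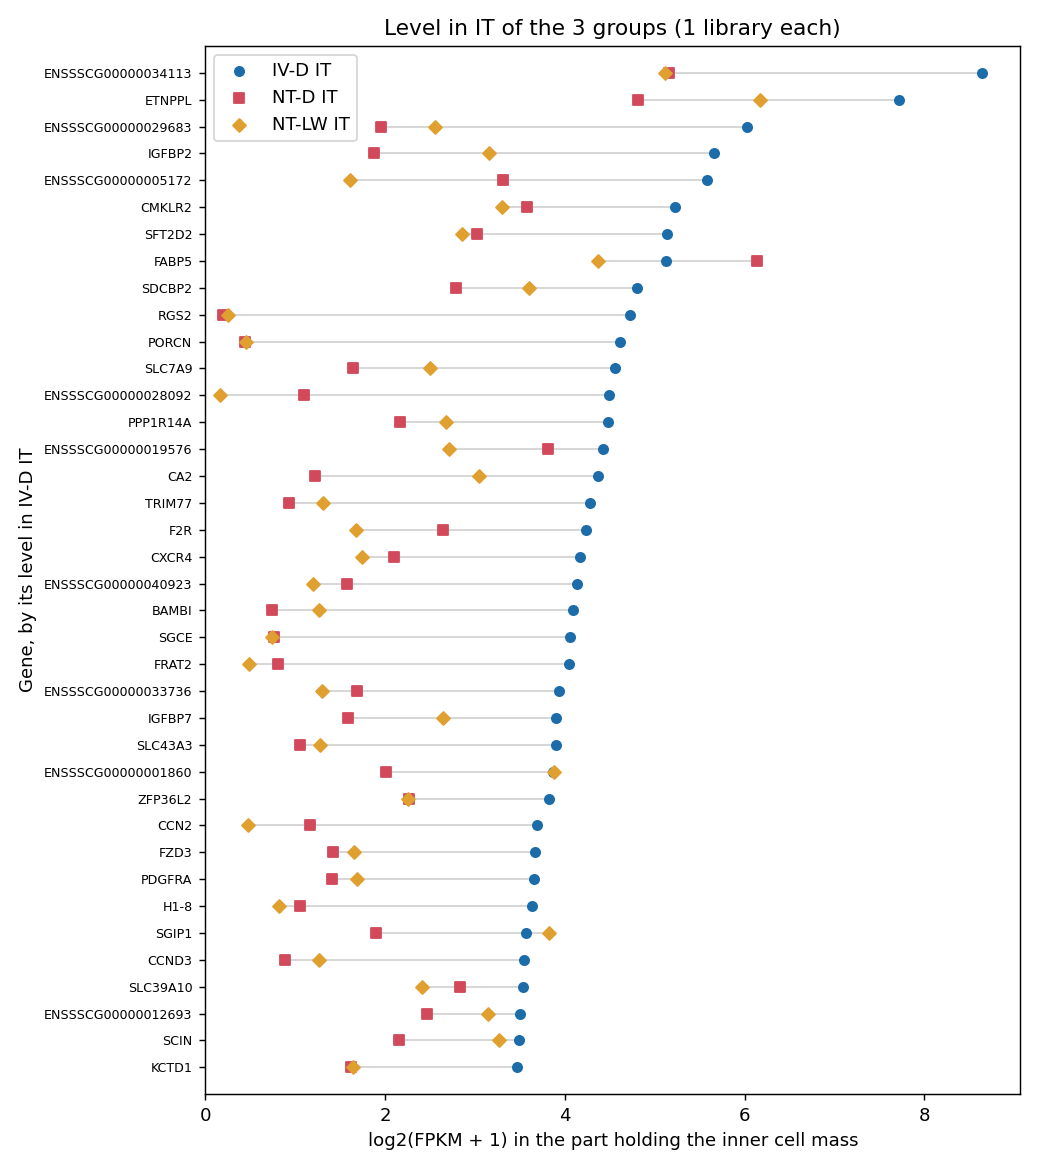
Level in IT of each of the 38 transcripts in IV-D (circles), NT-D (squares) and NT-LW (diamonds), ordered by the IV-D level, as log2(FPKM + 1), 1 library each; a grey line joins the lowest and the highest group. The clone values lie below the IV-D value except FABP5 in NT-D and SGIP1 and ENSSSCG00000001860 in NT-LW, an order that the choice of the genes favours.

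Before the blastocyst the comparison of clones with IV-D does not use the selecting libraries. The genes were still chosen for a high level in an IV-D library, so the choice may favour lower clone values at these stages too. In 4-cell embryos 1 of the 38, CCN2, was higher and 6 were lower in NT-D than in IV-D (8.50% and 11.5% of all genes), and 4 were higher and 7 lower in NT-LW (9.45% and 8.26%). In 8-cell embryos 15 of the 38 were lower and 4 higher in NT-D than in IV-D (15.1% and 9.38% of all genes), and 13 were lower and 5 higher in NT-LW (15.3% and 14.5%). Of those with a symbol, ETNPPL, IGFBP2, CMKLR2, PORCN, CA2, F2R, CXCR4, FRAT2 and SLC43A3 were lower in each clone group, and RGS2, H1-8 and FABP5 higher. The lower ones included CXCR4, CMKLR2, F2R, PORCN and CA2, which rose in IV-D at 8 cells. The receptors PDGFRA and BAMBI also rose there and were not called lower. PDGFRA nevertheless measured 0.127 FPKM in NT-D and 0.505 in NT-LW against 1.25 in IV-D. The NT-D difference of PDGFRA lay at the limit of the rule. BAMBI measured 2.18 FPKM in NT-D and 2.85 in NT-LW against 3.06 in IV-D. RGS2 and H1-8 were oocyte transcripts still falling in the clones. In morulae 17 were lower and 7 higher in NT-D (3.55% and 17.1% of all genes), with a median difference of -0.75 on the log2 scale against 0.23 over all genes, and 11 were lower (3.50%) and 8 higher (860 of the 8603 genes) in NT-LW. Of those with a symbol, PORCN, PPP1R14A, F2R and BAMBI were lower in both clone morulae, and SDCBP2, IGFBP7, SCIN, TRIM77 and H1-8 higher in both. Both comparisons use the same IV-D libraries and are given side by side without an overlap test.

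Successive stages were also compared within the clones. At 4 cells 5 of the 38 had risen and 1 had fallen against 2 cells in NT-D (14.6% and 7.07% of all genes), and 7 and 2 in NT-LW (14.6% and 17.5%). At 8 cells 11 had risen and 9 had fallen against 4 cells in NT-D (28.5% and 26.1% of all genes) and 10 and 8 in NT-LW (25.6% and 23.4%). From 8-cell embryo to morula 13 rose and 4 fell in NT-D (29.3% and 11.1%) and 19 rose and 7 fell in NT-LW (20.1% and 11.1%). The NT-D share that rose was near that of all genes. From morula to IT 1 rose, SGIP1, and 17 fell in NT-D (8.51% and 32.0% of all genes), and 3 rose, SLC7A9, PPP1R14A and SGIP1, and 20 fell in NT-LW (7.83% and 24.2%). ETNPPL, PORCN, CA2, TRIM77, FRAT2, SLC43A3, CCN2, H1-8, SLC39A10 and KCTD1 fell at that step in both clone groups. Many genes of the table fell there as well, with median changes over all genes of -0.58 in NT-D and -0.41 in NT-LW beside -0.80 and -1.09 for the 38. Median-ratio scaling of the libraries brought these to -0.09 and -0.04 for all genes and -0.29 and -0.58 for the 38. The highest clone library was the morula for 11 of the 38 in NT-D and 17 in NT-LW and IT for 7 and 5. These counts too have no share over all genes beside them.

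The 2 clone groups also differed from each other. In morulae 10 of the 38 were higher in NT-LW than in NT-D (6.44% of all genes) and 5 lower (1117 of the 8603 genes). CXCR4, CMKLR2, CA2, CCN2, SGCE and SGIP1 were among the higher ones and H1-8, TRIM77, ENSSSCG00000005172, ENSSSCG00000019576 and ENSSSCG00000001860 were the lower. In TE 11 were higher and 1 lower in NT-LW (3.57% and 5.30%). FABP5 was 16.2-fold, IGFBP2 10.3-fold and ETNPPL 8.56-fold higher in NT-LW TE. Breed, donor animal, cell line and the share of ICM cells left in the piece cannot be told apart in these single libraries.

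Markers of other cells were measured in the same pieces. Of 13 listed fibroblast markers 8 were in the table and summed to 2.87 FPKM in IT and 0.248 in TE of IV-D, 3.28 and 0.149 in NT-D and 9.65 and 1.30 in NT-LW. FN1, the fibronectin gene of that list, was higher in IT than in TE in all 3 groups, at 2.45 against 0.0920 FPKM in IV-D, 1.36 against 0.0353 in NT-D and 9.37 against 0.772 in NT-LW. The collagen gene COL3A1 was at 0 in IT of all 3 groups. The part of FN1-expressing cells in the levels of the 38 was not tested. Of 14 listed leukocyte markers 3 were in the table (FCER1G, AIF1 and LCP1), and they summed to 36.6 FPKM in IT and 682 in TE of IV-D, to 1133 and 944 in NT-D and to 469 and 454 in NT-LW. These 3 genes are not confined to leukocytes, and their low sum in IV-D IT stands beside the high values of the 38 there. Their part in the result was not tested.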

How the data were processed

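RNA of 23 pools of porcine oocytes, embryos or blastocyst pieces was amplified and sequenced by the authors. The submitters' processing notes name HISAT2 2.0.4, HTSeq 0.9.1 and the Sscrofa11.1 genome. The authors deposited 1 table of FPKM values for 8603 genes; the step that chose these genes is not given in the sources used here. FPKM are scaled per library, so a library dominated by few transcripts lowers all others. Every FPKM was a whole number of fragments at 1 length per gene and 1 depth per library, for 8603 of 8603 genes within 0.00319 of a whole fragment, which gave the depths.

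Differences were taken on log2(FPKM + 1) and called where they exceeded 1 with at least 1 FPKM in 1 library. Ratios were taken on FPKM, with 3 fragments as the floor where a library had 0 and no ratio where it had 1 to 3. These limits cover counting error only. No p-value was computed, since each condition has 1 library. Symbols were taken from a table pairing Ensembl IDs with symbols, and promoter windows from the RefSeq annotation of Sscrofa11.1. Any of the 38 genes could be named, beside the genes nearest outside each limit and genes of the 19 lists (markers and pathways). The 38 genes and the lists were chosen with earlier results of these data known. Alternatives were another pseudocount, a higher minimum FPKM, scaling each library to a common sum, median-ratio scaling, other limits for the 38 and other limits for first expression. The scripts were tested on simulated data. Python 3.11.15, NumPy 2.4.6, pandas 2.3.3, pysam 0.24.0 and matplotlib 3.10.9 were used.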

Additional observations from a re-analysis of the deposited data

Results flagged for a closer look

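ENSSSCG00000034113 was lower in IT than in TE of NT-LW, by -2.65 in log2(FPKM + 1), and higher in IT of NT-D and IV-D, so the single pairs of libraries pointed opposite ways. FABP5 had the same order of groups, with -1.25 in NT-LW and higher IT values in NT-D and IV-D. ENSSSCG00000040923 also did, with -3.43 in NT-LW, from 10 fragments in IT and 150 in TE. The difference between the groups was not tested for any of the 3 genes, since each rests on 1 library per piece.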

How the results depend on the processing

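Of 156 values recomputed for 41 counts, 127 lay within 1.5 times the reported one. The members numbered 107 at limits of over 5 and under 1 FPKM, 15 at over 20 and under 1, 24 at over 10 and under 0.5 and 70 at over 10 and under 2. With a minimum of 5 FPKM the genes higher in IT than in TE were 9 in NT-D and 9 in NT-LW, the genes that rose from 2-cell to 4-cell 5 in IV-D, 2 in NT-D and 4 in NT-LW, those that rose from 4-cell to 8-cell in NT-LW 6, and those that rose from morula to IT in NT-D 0. With a pseudocount of 0.1, 2 genes in NT-D and 4 in NT-LW fell from 2-cell to 4-cell, 3 rose from morula to IT in NT-D, and 2 were higher in NT-D than in IV-D at 4-cell. With each library scaled to a common sum, 16 rose from 2-cell to 4-cell in IV-D, 5 fell there in NT-LW, 1 rose from morula to IT in NT-LW, and 3 were higher in NT-LW than in IV-D at 8-cell. With median-ratio scaling, 5 genes in IV-D and 2 in NT-D fell from 2-cell to 4-cell, 7 fell from 8-cell to morula in NT-D, 3 in NT-D and 5 in NT-LW rose from morula to IT, 2 were higher in NT-D than in IV-D at 4-cell and 5 in NT-LW than in IV-D at the morula, where 8 were without it. That scaling moved the median change of all genes from morula to IT from -0.58 to -0.09 in NT-D and from -0.41 to -0.04 in NT-LW, and that of the 38 from -0.80 to -0.29 and from -1.09 to -0.58. With over 5 FPKM as first expression, 9 genes started in the IV-D oocyte, 4 at 4-cell and 12 at 8-cell. No paired analysis was possible because each condition has 1 library and the result comes from no test. At 3 fragments a transcript of 1 kb stands at 0.130 to 0.201 FPKM, so levels below that are not distinguished from 0.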
